A study of Mus musculus with 2 samples.

Results

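The vacuolar ATPase (V-ATPase) isoform subunits examined here are 9 genes, taken from the count table by symbol, of 27376 genes in all: Atp6v1b1 and Atp6v1b2 (subunit B), Atp6v1c1 and Atp6v1c2 (subunit C), Atp6v0d1 and Atp6v0d2 (subunit d), and Atp6v0a1, Atp6v0a2 and Atp6v0a4 (subunit a). RNA was sequenced from prostate tumour tissue of mice aged 16 months, with 1 library from the genotype named Bcat_Only and 1 from the genotype named Met_Bcat. Per the file headers, the heading for Bcat_Only carries the allele name Bcat_ex3Plus and a PB Cre driver, PB being the usual short name of the probasin promoter, which is active in prostate epithelium. The heading of the Met_Bcat column names no allele or Cre, so whether both tumours carry the same beta-catenin allele and driver is known only as far as the genotype names go. The tissue was whole, so tumour epithelium and other cells were measured together, and fewer cells of a type and less RNA per cell cannot be told apart. With 1 library per genotype there is no replicate check: every difference is between these 2 libraries, and every interval is a 95% interval for counting error only.

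The V-ATPase is a rotary pump that moves protons across membranes at the cost of ATP. Its cytosolic V1 sector holds ATP hydrolysis and its membrane V0 sector holds the proton path, and together they acidify lysosomes, endosomes and secretory granules in every cell. Several subunits are encoded by more than 1 gene. Usually 1 isoform is found in most tissues, and the others are known from cells that pump acid across their surface membrane, such as intercalated cells of the kidney, clear cells of the epididymis and bone-resorbing osteoclasts. The set was chosen by the read ratio of Atp6v1c2 between these libraries, which was already known, so that difference is given as a description and supports nothing.

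The reads were 51 bases long, which raises the question of whether a read can be assigned to 1 isoform. In the mouse GENCODE M21 transcripts (build GRCm38), no word of 51 bases was shared by any pair of isoforms of the same subunit (0 shared words in each of the 9 pairs, counting Tcirg1 as the remaining a isoform). The coding sequences of Atp6v1c1 and Atp6v1c2 were 66.6% identical over 1124 aligned bases, those of Atp6v0d1 and Atp6v0d2 65.9% and those of Atp6v1b1 and Atp6v1b2 76.3%. The stretches below are the 51 coding bases, without gaps, in which each pair is most alike; they are shown because they are where a read would be hardest to assign, and capitals mark the bases that differ between the isoforms of the pair.
Atp6v1c1: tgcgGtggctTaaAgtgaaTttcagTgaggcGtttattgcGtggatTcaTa
Atp6v1c2: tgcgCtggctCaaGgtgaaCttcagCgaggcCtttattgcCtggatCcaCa
Atp6v1b1: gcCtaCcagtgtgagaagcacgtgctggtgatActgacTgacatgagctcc
Atp6v1b2: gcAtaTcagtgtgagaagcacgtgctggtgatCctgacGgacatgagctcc
Atp6v0d1: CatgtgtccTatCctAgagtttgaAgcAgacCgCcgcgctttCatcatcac
Atp6v0d2: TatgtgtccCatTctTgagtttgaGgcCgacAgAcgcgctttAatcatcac
Even in these windows the C pair and the d pair differed at 9 of 51 bases, and the B pair at 4. Against the transcripts of all other genes, Atp6v1c2 shared 0 of 1519 words of read length. Atp6v0a2 shared 10.8% of its words with 4930404A12Rik and Atp6v0a4 0.399% with Tmem213, and the other members shared 0. Counts are per gene and do not separate splice forms.

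Subunit C, which clamps V1 onto V0 and is released when the pump is taken apart, differed most in its isoform make-up between the libraries among the 4 subunits compared. Atp6v1c1, the isoform found in most tissues (ENSMUSG00000022295, mm9 chromosome 15, 38591659 to 38622198, + strand), had 1192 reads in Bcat_Only and 1477 in Met_Bcat. Atp6v1c2, known from kidney, lung and epididymis (ENSMUSG00000020566, chromosome 12, 17291527 to 17336165, − strand), had 8 reads in Bcat_Only and 693 in Met_Bcat. The low library is Bcat_Only, where Atp6v1c2 was just above the 3 reads taken as the limit that a count of 0 allows, while Atp6v1c1 was of like level in both libraries.

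Counts were scaled to the library by TMM and expressed as CPM, the usual unit of reads relative to library size. For Atp6v1c2 this gave 0.434 CPM (Bcat_Only) and 32.9 CPM (Met_Bcat), with a log2 ratio of 6.24 (5.26 to 7.46). For Atp6v1c1 it gave 64.7 and 70.1 CPM, with a log2 ratio of 0.12 (0.0042 to 0.23). The 2-fold rule calls a gene higher or lower if the whole counting interval of its ratio lies beyond 2-fold, and it is applied where the mean of the libraries reaches 1 CPM. Of the 8 members above that minimum, 1 was higher in Met_Bcat, Atp6v1c2, and 0 were lower. Over all 14354 genes above the minimum, 4.42% were higher and 14.6% lower by the same rule. Because the members were chosen with this contrast known, nothing is read from their count. By the near end of the interval of the Met_Bcat to Bcat_Only ratio, Atp6v1c2 ranked 13th of the 14354 genes. It ranked 196th when genes that were lower were ranked with it. The other 7 measured members lay within 2-fold, and among them the signs of Atp6v1c1, Atp6v0d1 and Atp6v0a4 depend on how the libraries are scaled.

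Per kilobase of exon, which allows genes to be compared, Atp6v1c2 had 0.210 CPM per kb in Bcat_Only (0.0906 to 0.413) and 15.9 CPM per kb in Met_Bcat (14.7 to 17.1). On this scale Atp6v1c1 exceeded it 147-fold in Bcat_Only and 2.10-fold in Met_Bcat. The level of Atp6v1c2 was above that of 1.44% of the measured genes in Bcat_Only and of 72.1% in Met_Bcat, whereas Atp6v1c1 was above 85.9% and 88.0%. The measured genes are those with a mean of at least 1 CPM, which Atp6v1c2 reached only through its level in Met_Bcat. Its low rank in Bcat_Only follows in part from that minimum, so the change in rank is a description and supports nothing. Atp6v1c1 was near the top in both libraries.

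The isoform share within a library does not depend on how the libraries are scaled. Atp6v1c2 held 0.667% of the reads of subunit C in Bcat_Only (8 of 1200, exact interval 0.288% to 1.31%) and 31.9% in Met_Bcat (693 of 2170, 29.98% to 33.94%). Per exon length the shares were 0.675% and 32.2%. The odds that a C read came from Atp6v1c2 were 69.9 times higher in Met_Bcat (exact conditional interval 35.1 to 163). The summed level of both C genes was 31.1 CPM per kb in Bcat_Only but 49.3 in Met_Bcat and so 1.59-fold higher, with Atp6v1c1 at 30.9 and 33.4 of those units. The added C transcripts in Met_Bcat were therefore mostly Atp6v1c2, beside an Atp6v1c1 whose log2 ratio was 0.12 under TMM and −0.23 with the median of luminal epithelial markers set to 0.

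**Figure D1:**
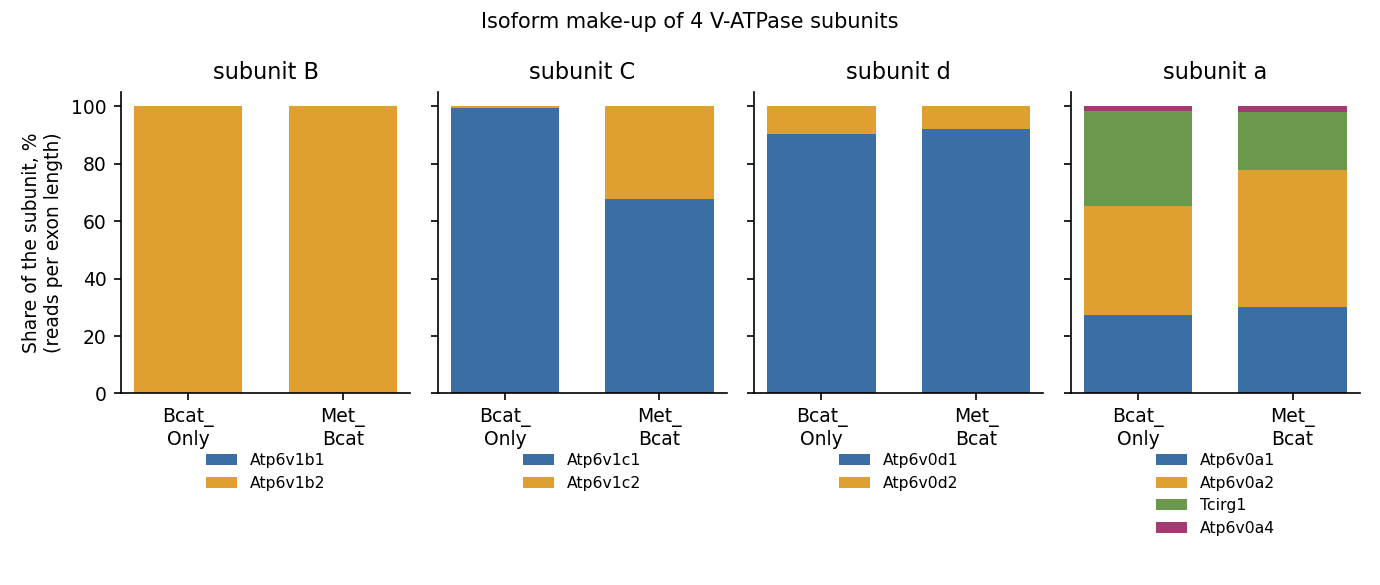
Share of each isoform in the summed level of its subunit (percent, reads per exon length), in the Bcat_Only and the Met_Bcat library, for subunits B, C, d and a. Atp6v1c2 takes 0.675% of subunit C in Bcat_Only and 32.2% in Met_Bcat; subunit B is Atp6v1b2 in both, and Tcirg1 takes 33.3% and 20.2% of subunit a.

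The surroundings of Atp6v1c2 were examined because its 3′ end overlaps the 3′ end of Pdia6 on the opposite strand by 50 bases in the deposited mm9 coordinates. Pdia6, a protein disulfide isomerase of the endoplasmic reticulum (ENSMUSG00000020571, chromosome 12, 17273351 to 17291576, + strand), had 6543 reads in Bcat_Only against 12777 in Met_Bcat and was 1.71-fold higher there (1.66 to 1.76). Without a stated strand setting, reads in the overlap cannot be assigned with certainty. Per 1000 reads of Pdia6 there were 1.22 reads of Atp6v1c2 in Bcat_Only and 54.2 in Met_Bcat. The part of the overlap in the Atp6v1c2 counts was not tested. On the other side, Nol10, which encodes a nucleolar protein, began 19119 bases beyond the 5′ end of Atp6v1c2 and was 1.46-fold higher (1.30 to 1.64), from 452 to 754 reads. Neither neighbour passed the 2-fold rule.

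RefSeq promoter sequence (GRCm38.p6, 250 bases before to 50 after the start) was matched for 5 of the 9 members: Atp6v1b1, Atp6v1c2, Atp6v0d1, Atp6v0a1 and Atp6v0a4. That of Atp6v1c2, the member the results turn on, is shown as the sequence next to the start of the gene that differs between the libraries (chr12:17324681-17324980, − strand).
Atp6v1c2 promoter: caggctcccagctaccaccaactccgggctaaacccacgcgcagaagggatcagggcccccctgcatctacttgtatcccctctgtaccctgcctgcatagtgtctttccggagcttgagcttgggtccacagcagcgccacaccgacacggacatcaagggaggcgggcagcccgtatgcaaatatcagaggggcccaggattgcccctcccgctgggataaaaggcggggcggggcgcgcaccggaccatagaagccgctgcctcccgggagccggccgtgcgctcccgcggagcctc
It is rich in G and C, at 66% of bases against a median of 52.7% over all 32851 promoters of this length. It was searched on both strands for CTTTGA, a core of sites for the TCF/LEF partners of beta-catenin, and for CACGTG, the E-box core of the CLEAR element found in genes of the lysosome. Neither stood in it, which says only that these letters are not in this window. CTTTGA stood in 16.0% of all promoters and in 0 of the 5 members' promoters. CACGTG stood in 7.15% of all promoters and in 1 of the 5, that of Atp6v0d1.

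Subunit B sits beside the catalytic subunit A in the ring that splits ATP. Atp6v1b2, its widespread isoform (ENSMUSG00000006273, chromosome 8, 71612545 to 71637610, + strand), had 3567 reads in Bcat_Only and 5590 in Met_Bcat, or 194 and 265 CPM, with a log2 ratio of 0.45 (0.39 to 0.52). It was the second most abundant member in both libraries, at 36.50 and 49.997 CPM per kb. Atp6v1b1, the isoform of kidney intercalated cells, inner ear and epididymis whose loss in humans causes distal renal tubular acidosis with deafness (ENSMUSG00000006269, chromosome 6, 83693011 to 83708803, + strand), had 0 reads in Bcat_Only and 1 in Met_Bcat. It was the only member below the minimum of 1 CPM, both values are under the floor of 3 reads, and no ratio is given. By the exact interval, a count of 0 allows Atp6v1b1 up to 0.103% of the 3567 B reads in Bcat_Only. The single read in Met_Bcat is 0.0179% of 5591 (exact interval 0.000453% to 0.0996%). The kidney-type B isoform was thus not told apart from a count of 0 in either library. Atp6v1b2 overlaps the vesicular amine transporter gene Slc18a1 on the opposite strand, which had 52 and 484 reads and was 8.14-fold higher (6.10 to 11.1). Gm15717 overlaps Atp6v1b2 on the same strand and had 16 and 29 reads. The part of these overlaps in the Atp6v1b2 counts was not tested.

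Subunit d joins the turning stalk of V1 to the ring of V0. Atp6v0d1, found in most tissues (ENSMUSG00000013160, chromosome 8, 108048365 to 108089947, − strand), had 2020 reads in Bcat_Only and 2480 in Met_Bcat, or 110 and 118 CPM, with a log2 ratio of 0.10 (0.017 to 0.19). Atp6v0d2, known from kidney, osteoclasts and macrophages (ENSMUSG00000028238, chromosome 4, 19803988 to 19849752, − strand), had 330 and 325 reads, or 17.9 and 15.4 CPM, with a log2 ratio of −0.22 (−0.44 to 0.0093). The interval of Atp6v0d2 includes no difference, and that of Atp6v0d1 ends just above it. Atp6v0d2 held 14.04% of the d reads in Bcat_Only (12.7% to 15.5%) and 11.6% in Met_Bcat (10.4% to 12.8%), and per exon length 9.73% and 7.96%. Unlike in subunit C, the restricted isoform took a slightly smaller share in Met_Bcat, with odds lower by 1.25-fold (1.05 to 1.47).

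Subunit a holds the channels through which protons pass, and its isoform is known to set the membrane the pump is sent to. Atp6v0a1, prominent in neurons (ENSMUSG00000019302, chromosome 11, 100870766 to 100925033, + strand), had 1964 reads in Bcat_Only and 1656 in Met_Bcat, or 107 and 78.6 CPM, with a log2 ratio of −0.44 (−0.54 to −0.35). Atp6v0a2, the isoform of Golgi and endosomes (ENSMUSG00000038023, chromosome 5, 125079673 to 125204824, + strand), had 2183 and 2117 reads, or 118 and 100.4 CPM, with a log2 ratio of −0.24 (−0.33 to −0.15). Both were somewhat lower in Met_Bcat, within 2-fold. Atp6v0a4, the isoform of kidney intercalated cells (ENSMUSG00000038600, chromosome 6, 37998483 to 38074586, − strand), had 82 and 89 reads, or 4.45 and 4.22 CPM, with a log2 ratio of −0.076 (−0.53 to 0.37). It was low in both libraries, at 0.895 and 0.849 CPM per kb, and its interval includes no difference. D630045J12Rik overlaps it on the same strand and had 348 and 3625 reads, 9.11-fold higher (8.16 to 10.2). Tmem213 overlaps Atp6v0a4 on the opposite strand and had 6 and 5 reads. Reads in these overlaps were not counted apart, and their part in the Atp6v0a4 counts was not tested.

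Tcirg1, which encodes the a3 isoform of osteoclasts and lysosomes and is not among the 9 members, was needed for the total of subunit a. It had 1628 reads in Bcat_Only against 757 in Met_Bcat and was 2.46-fold lower there (2.26 to 2.69), past the 2-fold rule. With it in the total, Atp6v0a2 held 37.3% of the a reads in Bcat_Only (36.0% to 38.5%) and 45.8% in Met_Bcat (44.4% to 47.3%), Atp6v0a1 33.5% and 35.9%, Tcirg1 27.8% and 16.4%, and Atp6v0a4 1.40% (1.12% to 1.73%) and 1.93% (1.55% to 2.37%). Without Tcirg1 in the total the share of Atp6v0a1 went the other way, 46.4% in Bcat_Only and 42.9% in Met_Bcat, while that of Atp6v0a2 was 51.6% and 54.8%. The summed level of the a genes with Tcirg1 was 59.3 CPM per kb in Bcat_Only but 39.8 in Met_Bcat and so 1.49-fold lower, against 1.37-fold higher for subunit B and 1.05-fold for subunit d. Of the 4 subunits compared, C and a thus differed most in make-up, C through Atp6v1c2 and a through Tcirg1.

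By level per exon length the order in Bcat_Only was Atp6v0d1 (61.1 CPM per kb), Atp6v1b2, Atp6v1c1, Atp6v0a2 (22.3), Atp6v0a1 (16.3), Atp6v0d2 (6.59), Atp6v0a4, Atp6v1c2 and Atp6v1b1. In Met_Bcat the order was the same except that Atp6v1c2, at 15.9 CPM per kb, stood between Atp6v0a2 (18.9) and Atp6v0a1 (12.02). The counting intervals of neighbours in these orders did not overlap, except those of Atp6v1c2 and Atp6v1b1 in Bcat_Only. The spread between animals is unknown, so the orders hold for these libraries.

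**Figure D2:**
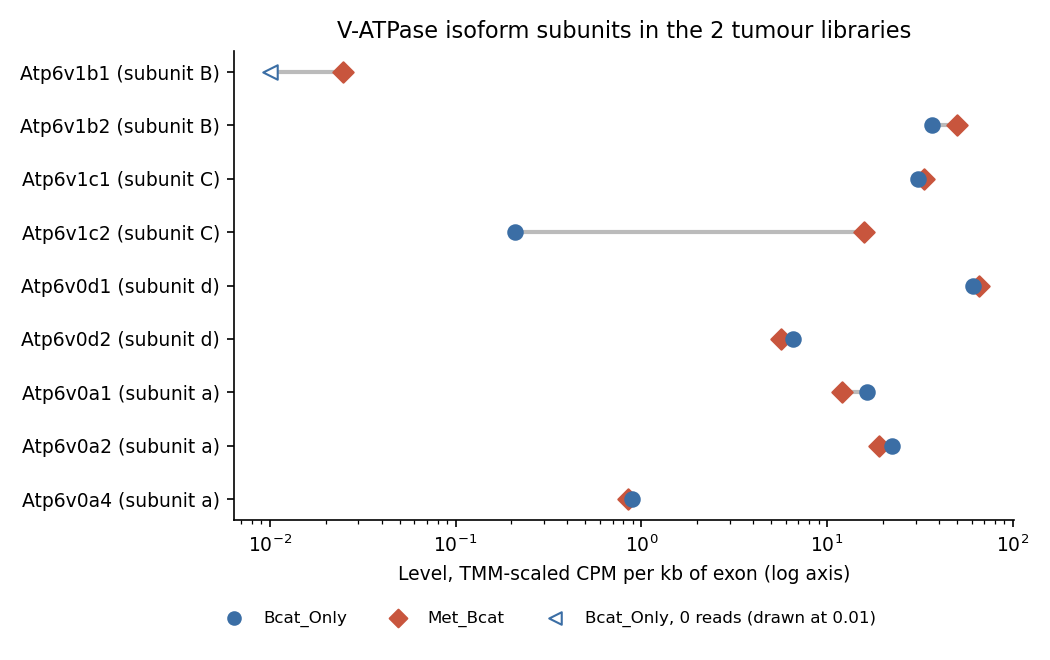
Level of the 9 isoform subunits in TMM-scaled CPM per kb of exon (log axis), with circles for Bcat_Only, diamonds for Met_Bcat and an open triangle for the count of 0 of Atp6v1b1 in Bcat_Only, which has no place on a log axis. Atp6v1c2 lies at 0.210 and 15.9, and each of the other 7 measured members has its 2 points close together.

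The remaining subunits of the pump were compared to see how the complex as a whole stood. Of 16 further subunit genes and accessory proteins in the table, 14 were above the minimum, 0 were higher and 1, Tcirg1, was lower by the 2-fold rule, against 4.42% and 14.6% of all measured genes. Their median log2 ratio was 0.21, beside 0.031 over all measured genes, with 9 above 0 and 5 below, and it turned to −0.13 with the luminal median set to 0, where that of all genes was −0.32. The catalytic subunit gene Atp6v1a had 180 CPM in Bcat_Only and 137 in Met_Bcat, a log2 ratio of −0.39, and the stalk genes Atp6v1d and Atp6v1e1 had log2 ratios of 0.41 and 0.32. Atp6v1h, a regulator at the V1 and V0 interface, had 0.26. Atp6v0b, of the proton-carrying ring, had −0.45, and Atp6v0e 0.32. Atp6v0c, the main ring subunit, had 122 and 281 reads and the highest log2 ratio of this group, 1.01 (0.70 to 1.33), but 32.3% of its read-length words also occur in the pseudogenes Atp6v0c-ps1 and Atp6v0c-ps2, so its count is uncertain. Atp6v1g1 and Atp6v1f shared 18.9% and 12.3% of their words with pseudogenes. The restricted isoforms Atp6v1e2 and Atp6v1g3 had at most 1 read in either library. Apart from Tcirg1 and Atp6v0c, the measured subunits of this group lay within 2-fold, and Atp6v1c2 lay far above every other subunit gene.

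**Figure D3:**
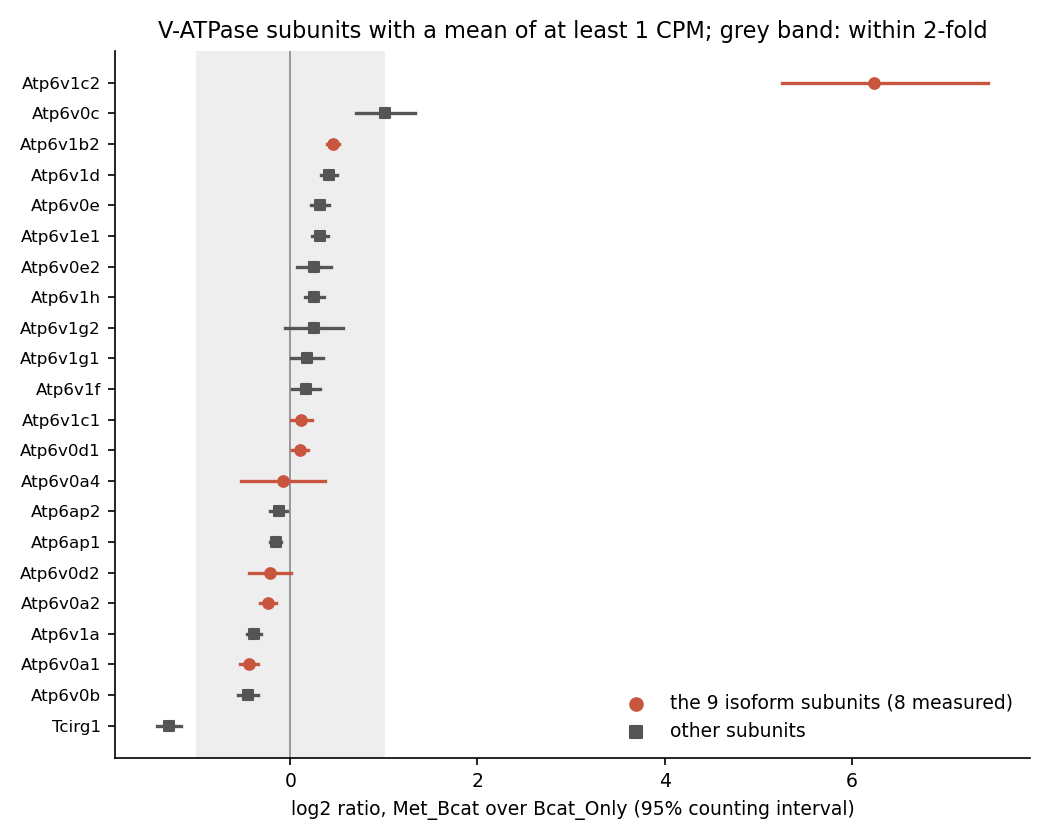
Log2 ratio of Met_Bcat to Bcat_Only for the 8 measured isoform subunits (circles) and 14 other subunit genes (squares), with 95% counting intervals; the grey band spans 2-fold in either direction. Atp6v1c2 stands at 6.24, Tcirg1 at −1.30 and Atp6v0c at 1.01, and the others lie within the band.

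Factors that assemble or regulate the pump were 14 listed genes, 12 of them measured, with 0 higher and 1 lower, against 4.42% higher and 14.6% lower over all measured genes. Their median log2 ratio was −0.029 (0.10 with total counts and −0.37 with the luminal median set to 0). The lower gene was Tbc1d24, at 2.38-fold (2.04 to 2.78), which did not pass the rule with total counts or the upper quartile. With the luminal median set to 0, 3 were lower, Dmxl2 and Ncoa7 as well as Tbc1d24. Ncoa7, which binds the pump through its TLDc domain, was 1.94-fold lower (1.68 to 2.25) and Dmxl2, a subunit of the RAVE-like assembly complex, 1.78-fold lower (1.62 to 1.96), and the ring-associated gene Rnasek had a log2 ratio of 0.64. Lysosomal membrane and hydrolase genes, whose compartment the pump acidifies, had a median of −0.54 over 18 measured members, 0 higher and 2 lower (7 lower with the luminal median set to 0). Over all measured genes 4.42% were higher and 14.6% lower by the same rule, and nothing is read from the count of 2. Of the 18, 2 had a log2 ratio above 0 under TMM, and the median over all measured genes was 0.031. The 2 genes past the rule were the protease genes Ctsb, lower by 2.76-fold (2.70 to 2.82), and Ctsl, lower by 2.67-fold (2.57 to 2.78). Of the MiT/TFE factors, which bind the CLEAR element, Mitf was higher, with 409 reads in Bcat_Only and 1095 in Met_Bcat, except with the luminal median set to 0, where it did not pass the rule, and Tfec was lower, with 163 and 19 reads. Tfeb and Tfe3 had log2 ratios of −0.073 and −0.20.

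Markers of cells that use the restricted isoforms were set beside these values. Of 16 genes of proton-secreting epithelial cells, 7 were measured, with a median log2 ratio of −0.84, 1 higher and 3 lower, against 4.42% higher and 14.6% lower over all measured genes. With the luminal median set to 0, 6 were measured, with a median of −1.55, 0 higher and 3 lower. The summed level of the list was 499 CPM in Bcat_Only and 686 CPM in Met_Bcat, most of it the carbonic anhydrase gene Car2, at 440 and 599 CPM, which many epithelia express. The anion exchanger gene Slc4a1 had only 45 reads in Bcat_Only and 2, under the floor, in Met_Bcat, and was 25.7-fold lower (6.72 to 219). Slc26a4, also an anion exchanger gene, had 123 and 27 reads and was 5.21-fold lower (3.41 to 8.23). The carbonic anhydrase gene Car12 was 2.96-fold lower (2.35 to 3.74). Kit, a receptor found on many cell types, had 524 and 1586 reads and was higher except with the luminal median set to 0. The other measured genes of this list were Cftr, a chloride channel gene, with 61 and 39 reads, and Hepacam2, with 18 and 25. The 9 below the minimum are given with the rest so that the list is complete. Foxi1, the transcription factor that defines such cells, had 0 reads in Bcat_Only and 4 in Met_Bcat, the ammonia channel gene Rhcg 0 and 5, and the anion exchanger gene Slc4a9 2 and 4. Rhbg had 14 reads in each library, Insrr had 22 and 6, Dmrt2 had 5 and 1, Ascl3 had 3 and 2, and Aqp6 and Oxgr1 had 0 in both. The part of such cells in the difference of Atp6v1c2 was not tested. Of 10 kidney tubule markers 3 were measured, 0 higher and 2 lower, against 4.42% and 14.6% over all measured genes. The lower genes were Aqp2, with 45 reads in Bcat_Only and 0 in Met_Bcat, and Pax2, with 48 and 0. The remaining measured gene, Lrp2, had 1986 and 1310 reads, or 108 and 62.2 CPM, of list sums of 114 and 63.3 CPM. Lrp2 was 1.73-fold lower (1.62 to 1.86), past the rule only with the luminal median set to 0. Umod, Slc34a1 and Slc5a2 had 0 reads in both.

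Markers of myeloid cells were lower in the library where Tcirg1 was lower. Of 10 measured osteoclast genes 5 were lower and 0 higher, against 14.6% and 4.42% over all measured genes, with a median of −1.37 and a summed level of 964 CPM in Bcat_Only and 295 CPM in Met_Bcat. They were led by Mmp9 at 6.70-fold and Acp5 at 4.80-fold, genes that macrophages or neutrophils also express. Tnfrsf11a was 3.70-fold lower, and Ocstamp, with 52 and 21 reads, was lower by the rule only with the luminal median set to 0. Below the minimum, Oscar had 31 and 0 reads and Calcr 13 and 0. Dcstamp, needed for the fusion of osteoclast precursors, went the other way, with 53 and 135 reads and a log2 ratio of 1.15, and did not pass the rule. Of the 10 measured genes, 2 had a log2 ratio above 0 under TMM. Of 14 macrophage genes, all measured, 12 were lower and 1, Gpnmb, was higher, beside the same shares over all genes, with a median of −2.20 and a summed level of 4081 and 1147 CPM. Mrc1 was 22.1-fold and Itgam 17.2-fold lower. Atp6v0d2, also known from these cells, had 330 and 325 reads beside them. The part of these cells in the values of Tcirg1 and Atp6v0d2 was not tested.

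The tissue label was checked against epithelial markers, and 13 of 13 luminal and 10 of 10 basal genes were above the minimum, with medians of 0.34 and 0.65. The luminal list summed to 3838 CPM in Bcat_Only and 6292 CPM in Met_Bcat. Fibroblast and neutrophil lists had medians of −3.31 and −5.13, with 10 of 12 and 12 of 12 genes lower, against 14.6% over all measured genes. The fibroblast count was 9 with total counts or the upper quartile and 12 with the luminal median set to 0. The 6 seminal vesicle genes, which mark a neighbouring gland, summed to 6182 CPM in Bcat_Only and 4.51 CPM in Met_Bcat. The part of tissue make-up in the difference of Atp6v1c2 was not tested. With the luminal median set to 0, the log2 ratio of Atp6v1c2 was 5.90. The libraries held 19301062 reads assigned to genes in Bcat_Only and 20117724 in Met_Bcat.

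**Figure D4:**
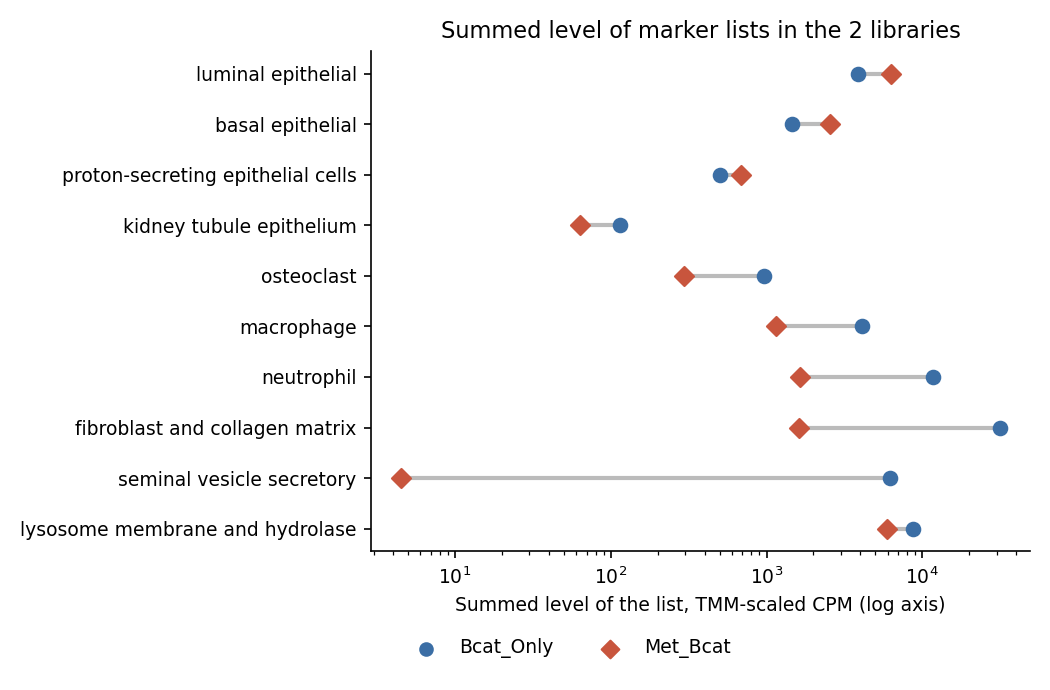
Summed level of 10 gene lists in TMM-scaled CPM (log axis), with circles for Bcat_Only and diamonds for Met_Bcat. The luminal list goes from 3838 to 6292 CPM, the macrophage list goes from 4081 to 1147 CPM, and the seminal vesicle list from 6182 to 4.51 CPM.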

How the data were processed

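The deposited table holds read counts per gene, not normalized, for 27376 genes with mm9 coordinates, strand and total exon length in bases, per the file headers. TopHat2 (version 2), HTSeq and edgeR are the tools, and mm9 the build, that the submitters' processing notes give; the strand setting of the counting is not given in the sources used here. Per the labels' protocols, 200 ng of RNA entered a stranded mRNA kit with 10 cycles of PCR, and reads were 51 bases, single-end. Columns were matched to samples by the sample number in their heading.

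Library sizes were scaled by TMM (edgeR 4.0.16, R 4.3.3; factors 0.955 and 1.05). Ratios have exact Clopper-Pearson 95% intervals conditional on the summed reads, isoform shares exact binomial intervals, levels exact Poisson intervals, and odds exact conditional intervals (scipy 1.17.1). All cover counting error only, since PCR reads without molecular identifiers are not independent molecules. The floor for a count of 0 was 3 reads. No test between genotypes was possible with 1 library each, and no p-value was computed.

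Named are the 9 members, the other subunits, up to 4 members of each of 14 gene lists (157 entries, all found, 2 through reference names) ranked by the smallest fold their interval holds, and the nearest measured gene on each side of members past the 2-fold rule. Outside this rule, and chosen after their values were seen, are genes overlapping a member (Slc18a1, Gm15717, D630045J12Rik, Tmem213) and genes sharing words with one. So are the remaining proton-secreting markers, Ocstamp, Oscar, Calcr, Dcstamp, Gpnmb and the kidney markers at 0 reads. Members and lists were chosen with earlier results of these data known. Alternatives were other scalings (total counts, DESeq2 1.42.0 size factors, upper quartile, luminal median), other minimums and folds, shares per exon length, and subunit a without Tcirg1. Shared words and coding sequences came from GENCODE M21 and promoters from RefSeq, both GRCm38, so their coordinates are never set against mm9.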

Additional observations from a re-analysis of the deposited data

How the results depend on the processing

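The log2 ratio of Atp6v1c2 lay between 5.90 and 6.38 under all 5 scalings tried, and the count of members past the 2-fold rule was 1 higher and 0 lower under each scaling, each minimum (0.2 and 10 CPM) and at 4-fold. The signs of 3 members within 2-fold depended on the scaling: Atp6v1c1 ranged from −0.23 to 0.25, Atp6v0d1 from −0.24 to 0.24 and Atp6v0a4 from −0.42 to 0.058. Against TMM, total counts shift every log2 ratio by 0.13 and the luminal median by −0.34. The median of the other V-ATPase subunits was 0.35 with total counts, 0.29 with the upper quartile and −0.13 with the luminal median set to 0, where the median of all measured genes was −0.32. These shifts follow from the scaling itself.

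Per exon length the share of Atp6v0d2 was 9.73% in Bcat_Only and 7.96% in Met_Bcat, that of Atp6v0a1 27.5% and 30.2%, and that of Atp6v0a2 in Met_Bcat 47.5%. Without Tcirg1, Atp6v0a1 held 46.4% and 42.9%, Atp6v0a2 51.6% and 54.8%, and Atp6v0a4 1.94% in Bcat_Only; the smaller total is part of this alternative's construction. No replicate could be left out, and no paired analysis was possible because each genotype has 1 library. The 8 reads of Atp6v1c2 in Bcat_Only limit the precision of its ratio.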
